A study of Homo sapiens with 4 samples.

Results

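The genes described here are 39 genes of fatty acid oxidation and ketone body synthesis, taken by gene symbol from the 58302 genes that the libraries list, and all 39 symbols were found. They were sorted into 11 roles: regulators, lipid binding and droplet proteins, acyl-CoA synthetases, the carnitine shuttle, acyl-CoA dehydrogenases, electron transfer, the later mitochondrial steps, auxiliary enzymes for unsaturated chains, peroxisomal enzymes, thioesterases and ketone body enzymes. The libraries are mRNA-seq of HepG2, a wild-type human hepatocellular carcinoma line that is a model of hepatoma cells and not of normal liver. The cells were given melatonin, the pineal hormone, at 1 mM or the solvent DMSO for 24 h or 48 h, so that 4 libraries stand for 4 conditions with 1 library each. Where 4 values follow each other, DMSO comes first and melatonin second at 24 h, and the same pair follows for 48 h. The study dealt with melatonin's action on these tumour cells, mainly through RNA splicing, and gene expression, described here, was measured in the same work. There are no replicates, so a difference between conditions has no replicate check and no p-value is given.

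Fatty acids enter a liver cell bound to carrier proteins, are joined to coenzyme A by acyl-CoA synthetases, and are either stored in lipid droplets or passed into mitochondria by the carnitine shuttle. Inside, rounds of dehydrogenation, hydration, a further dehydrogenation and thiolysis shorten the chain, with the electrons handed to the respiratory chain through the electron transfer flavoprotein, while very long and branched chains are shortened in peroxisomes. Hepatocytes turn the resulting acetyl-CoA into ketone bodies for export in fasting. PPARA is the nuclear receptor that switches much of this programme on when it is paired with a retinoid X receptor, and PPARGC1A is a coactivator of PPARA and of other regulators of mitochondrial genes.

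Values are FPKM, the fragments per kilobase of gene length scaled by the authors to a library size. The number of reads behind each value could be recovered from the FPKM, and the reads on genes ranged from 21616676 to 23086025 per library. The 39 genes took 0.423% and 0.420% of the reads on nuclear genes at 24 h (DMSO and melatonin) and 0.368% and 0.370% at 48 h. Ratios of FPKM are given with the 95% exact interval that counting error leaves, and single values were bounded by exact Poisson intervals. These cover counting error only. A gene was counted as changed when log2((FPKM + 1)/(FPKM + 1)) was at least 1 or at most -1 and one of the libraries compared had an FPKM of 1 or more, and a smaller change of 1.5-fold on the same scale was counted as well. In bulk RNA, fewer cells with a transcript and less of it per cell cannot be told apart.

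The cells carried their label. All 11 hepatocyte markers were present, with ALB the highest at an FPKM of up to 3343, and they summed to 9416, 9407, 8889 and 7437. The sums hide opposite differences at 48 h, where the ratio of melatonin over DMSO ran from 0.411 (AFP, a fetal liver protein) to 5.05 over the 11 markers, against 0.722 to 1.12 at 24 h, and the part of this in the members' differences at 48 h was not tested. The stromal markers COL1A2 and COL3A1 had no reads in any library, and the leukocyte gene PTPRC had at most 1. The summed FPKM ran from 2.16 to 3.88 over the 4 stromal markers, which is almost entirely ACTA2, from 0.543 to 1.18 over the 3 endothelial markers, and from 0.285 to 1.15 over the 3 immune markers. Of the bile duct markers KRT7 was near 0, and KRT19 was at 62.1, 33.2, 34.5 and 18.8. KRT19 was thus lower with melatonin at both times, as were several genes below, and its part in those results was not tested. Mitochondrial genes held 20.0%, 16.6%, 9.77% and 11.9% of the reads, and rescaling to TPM moved the median log2 fold change of all genes by 0.15 at 24 h, by 0.46 between the DMSO libraries and by 0.27 between the melatonin libraries. On the deposited scale that median lay between -0.04 and 0.02 in each comparison, and the changes below are on that scale.

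A pair of members, FABP1 and PLIN2, make up the role of lipid binding and droplet proteins and were lower with melatonin at both times. The RefSeq sequence before their start sites (GRCh38.p14, 250 bases, 5′ to 3′ on the strand of the gene) is therefore shown here. FABP1 lies on the reverse strand of chromosome 2, with this sequence at chr2:88128063-88128312, and PLIN2 on the reverse strand of chromosome 9, at chr9:19127493-19127742. Capitals mark AGGTCA or its reverse complement TGACCT, the 6 bases that nuclear receptors such as PPARA and its partner bind.
FABP1: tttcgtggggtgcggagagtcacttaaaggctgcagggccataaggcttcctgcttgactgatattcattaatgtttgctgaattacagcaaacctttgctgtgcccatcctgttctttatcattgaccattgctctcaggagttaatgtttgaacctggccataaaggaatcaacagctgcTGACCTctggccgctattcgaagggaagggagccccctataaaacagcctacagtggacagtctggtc
PLIN2: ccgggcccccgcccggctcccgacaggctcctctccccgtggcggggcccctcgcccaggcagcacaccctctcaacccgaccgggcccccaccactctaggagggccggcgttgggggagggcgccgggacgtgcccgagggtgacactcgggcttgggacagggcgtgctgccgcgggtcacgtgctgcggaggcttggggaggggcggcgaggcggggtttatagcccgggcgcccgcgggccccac
The starts are those of RefSeq and not the ends of the genes as the files count them. The start of PLIN2 lies 21798 bases inside the gene of the files, so that the sequence shown is within that gene but holds no exon of GENCODE 44, and that of FABP1 lies 54 bases inside, so that 54 of the bases shown are counted as gene in the files. FABP1 holds the 6 bases once, 68 bases before its RefSeq start, and PLIN2 not at all. The base composition differs too, at 48.0% G and C in FABP1 and 78.0% in PLIN2.

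An entry within 1000 bases of the gene as the files give it was found for 32 of the 39 members, and 3 of these 32 (9.38%) held AGGTCA on either strand, against 12.1% of all 35116 promoter entries. The 3 matches with 12 bases on either side are shown because the genes differ in their response to melatonin. They lie at chr2:88128113-88128142 on the reverse strand, chr10:112375033-112375062 and chr12:111685974-111686003 on the forward strand, at 68, 223 and 67 bases before the RefSeq start, which for ACSL5 lies 1250 bases inside the gene of the files.
FABP1: atcaacagctgcTGACCTctggccgctatt
ACSL5: ttttactggaggAGGTCAataaaaaaaaaa
ACAD10: ggccgccgtcgcTGACCTgcggtttacgca
FABP1 and ACSL5 were lower with melatonin at both times and ACAD10 was higher at both. The complete direct repeat AGGTCANAGGTCA, in which N is any base, was found in 0 of the 32 members and in 0.0171% of all entries. The GC box GGGCGG (either strand) was found in 23 of the 32 (71.9%) against 42.6% of all entries, the CCAAT box in 6 (18.8%) against 32.0%, and the E-box CACGTG in 2, PLIN2 and ACAD9 (6.25%), against 6.34%. Only the first such entry of each member was used, and the set of all entries was not matched to the members for gene class or expression. The motif counts are matches of letters and not tested sites.

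Levels spanned a wide range. By the mean of the 4 libraries the most abundant members were ACSL4 (82.0), HADHA (75.6), ACSL3 (59.8), ECHS1 (56.2), FABP1 (49.3), ACADVL (45.4) and PLIN2 (36.6). CPT2, ACADL and ACAD11 stayed below an FPKM of 1 throughout and were left out of the counts, which leaves 36. ACADL, the long-chain acyl-CoA dehydrogenase, was listed at 0 throughout, and 3 reads, the least taken as detection, would have put it at 0.0373 with DMSO at 24 h. ACAD11, a dehydrogenase of long and very long chains, had 8, 7, 6 and 12 reads, and its value is uncertain because it overlaps other protein-coding genes on both strands. CPT2 was at 0.813, 0.887, 0.537 and 0.823.

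**Figure D1:**
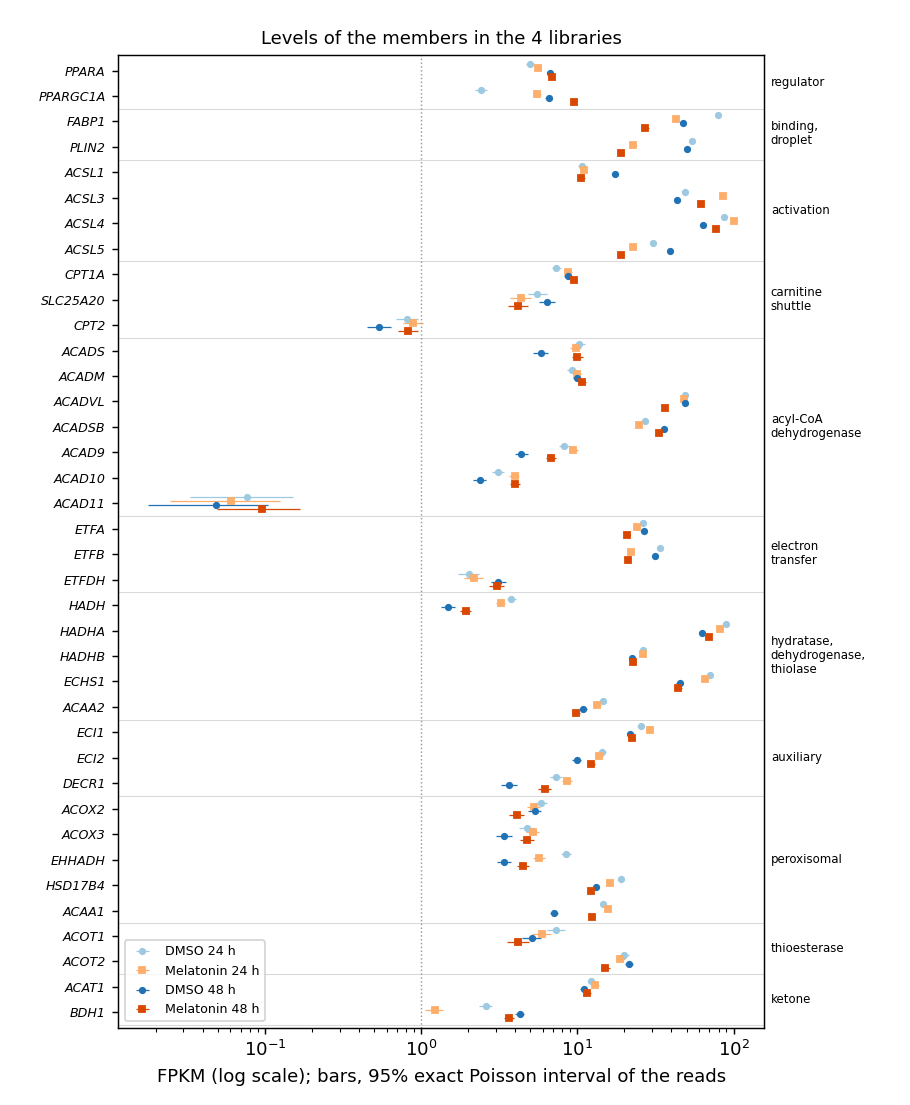
FPKM of 38 members (ACADL, listed at 0, is left out) on a log scale, ordered by role, with circles for DMSO and squares for melatonin, and bars for the 95% exact Poisson interval of the reads. The dotted line marks an FPKM of 1, below which CPT2 and ACAD11 lay in every library, and the lipid proteins FABP1 and PLIN2 show the squares to the left of the circles of the same time.

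Of the 36 members tested at 24 h, 1 fell and 0 rose at least 2-fold with melatonin, where 0.439% of 10481 protein-coding genes fell and 0.191% rose, and 4.35% of all 13582 genes tested passed in either direction. At 48 h, 2 fell and 0 rose, where 1.36% of 10582 protein-coding genes fell and 1.03% rose, and 5.72% of all 13805 genes passed in either direction. PLIN2 fell at both times, and ACSL5 fell at 48 h. At the smaller threshold of 1.5-fold, 2 members were higher (PPARGC1A and ACSL3) and 4 lower (FABP1, PLIN2, ETFB and BDH1) at 24 h, beside 1.92% higher and 2.74% lower among protein-coding genes. At 48 h, 3 were higher (ACADS, DECR1 and ACAA1) and 4 lower (FABP1, PLIN2, ACSL1 and ACSL5), beside 6.78% and 6.36%, and with the reads on nuclear genes as library size 5 were higher and 4 lower. On the TPM scale, with 37 members tested, 2 were higher and 3 lower at 24 h, and 4 were higher and 6 lower at 48 h. The median log2 fold change of the members was -0.06 at 24 h and 0.02 at 48 h, and that of all genes 0.02 and -0.02. The signs were mixed, with 16 members above 0 and 20 below at 24 h, and 19 and 17 at 48 h, while 57.9% and 49.0% of protein-coding genes were above 0. With a pseudocount of 0.1 in place of 1, 3 members passed 2-fold at 24 h, namely PLIN2, PPARGC1A and BDH1, and on the TPM scale PPARGC1A rose beside the fall of PLIN2.

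The libraries of 24 h and 48 h are separate, so the 2 comparisons share none. Set against each other across the 36 members, the fold changes of the earlier and the later time correlated at r = 0.69 (Pearson) and rho = 0.67 (Spearman), and at 0.57 and 0.53 across 10312 protein-coding genes. Genes are not independent samples, and each gene has the same length in both. Past counting error, 8 members were higher with melatonin at both times (PPARGC1A, ACSL3, ACSL4, CPT1A, ACAD9, ACAD10, DECR1 and ACAA1) and 10 were lower at both (FABP1, PLIN2, ACSL5, SLC25A20, ACADSB, ETFA, ETFB, ACAA2, HSD17B4 and BDH1). Past counting error at neither time were 4 (ACADM, ETFDH, HADHB and ACAT1). At this depth the interval of the ratio left out 1 for 25 of 36 members at 24 h and 28 of 36 at 48 h, and for 57.7% and 70.4% of protein-coding genes, so a ratio past counting error was common. On the TPM scale the small values of ETFA, ACADSB and ACAA2 turned above 0 at 24 h. Other values became smaller there, with HSD17B4 at -0.05 and SLC25A20 at -0.16 at 24 h, and CPT1A at 0.07 at 48 h. The counting intervals were not recomputed on that scale, so the lists past counting error hold for the deposited scale.

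**Figure D2:**
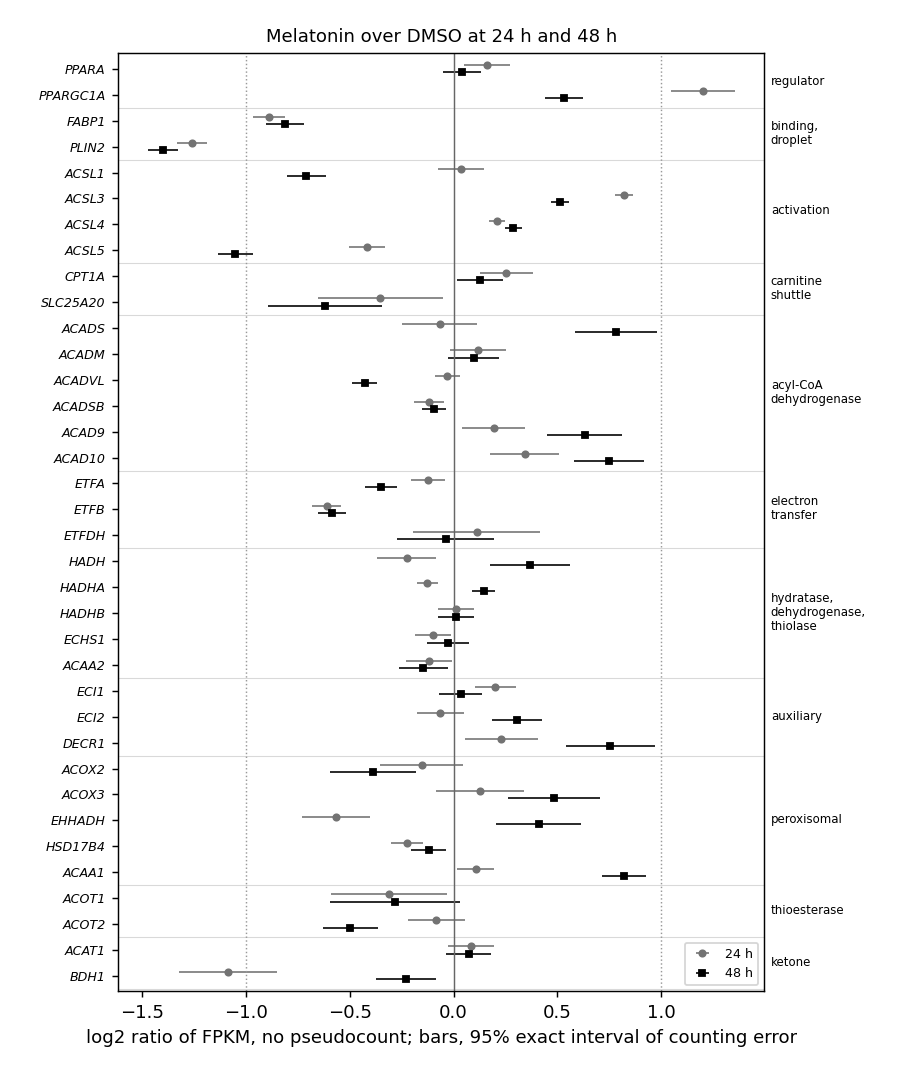
Log2 ratio of FPKM, melatonin over DMSO and without a pseudocount, for the 36 members tested, at 24 h (grey circles) and 48 h (black squares), with bars for the 95% exact interval of counting error. The solid line marks no difference and the dotted lines a ratio of 2 either way, and PLIN2 lies past the lower dotted line at both times, BDH1 at 24 h and ACSL5 at 48 h, while PPARGC1A lies past the upper one at 24 h.

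PLIN2 encodes perilipin 2, the coat protein of lipid droplets in hepatocytes, and its gene lies at chr9:19108375-19149290. Its FPKM was 54.5 and 22.7 at 24 h and 50.1 and 19.0 at 48 h. Both melatonin libraries lay below both DMSO libraries. PLIN2 fell 2.40-fold (2.28 to 2.52) at 24 h and 2.64-fold (2.51 to 2.78) at 48 h, from 5085 and 5585 reads with DMSO to 2345 and 2142 with melatonin. Between 24 h and 48 h it differed little within a treatment on the deposited scale, at 1.09-fold lower with DMSO and 1.20-fold lower with melatonin.

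FABP1, the liver fatty acid binding protein (chr2:88122982-88128116), was at 79.4, 42.9, 47.6 and 27.1. It was lower with melatonin at each time, by 1.85-fold (1.75 to 1.95) and 1.75-fold (1.65 to 1.87), which did not pass 2-fold. On the deposited scale it was also lower at 48 h than at 24 h, by 1.67-fold with DMSO and 1.58-fold with melatonin. The melatonin library of 24 h and the DMSO library of 48 h were thus close on that scale. On the TPM scale FABP1 did not pass 1.5-fold between the times in either treatment.

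Of the regulators PPARGC1A was higher with melatonin at both times and PPARA differed little. PPARGC1A (chr4:23755041-23904089) was at 2.41 and 5.54 at 24 h and at 6.53 and 9.44 at 48 h. The ratio was 2.30 (2.07 to 2.56) at 24 h and 1.45 (1.35 to 1.54) at 48 h, and on the scale with a pseudocount the 24 h value was a log2 fold change of 0.94, under the threshold. From 24 h to 48 h it rose 2.71-fold with DMSO and was 1.70-fold higher with melatonin, and the DMSO library of 48 h lay above the melatonin library of 24 h. PPARA (chr22:46150521-46243756) was at 4.97 and 5.55 at 24 h and at 6.66 and 6.84 at 48 h, with ratios of 1.12 (1.04 to 1.21) and 1.03 (0.965 to 1.09). The PPARGC1A over PPARA ratio of FPKM was 0.485, 0.998, 0.981 and 1.38.

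**Figure D3:**
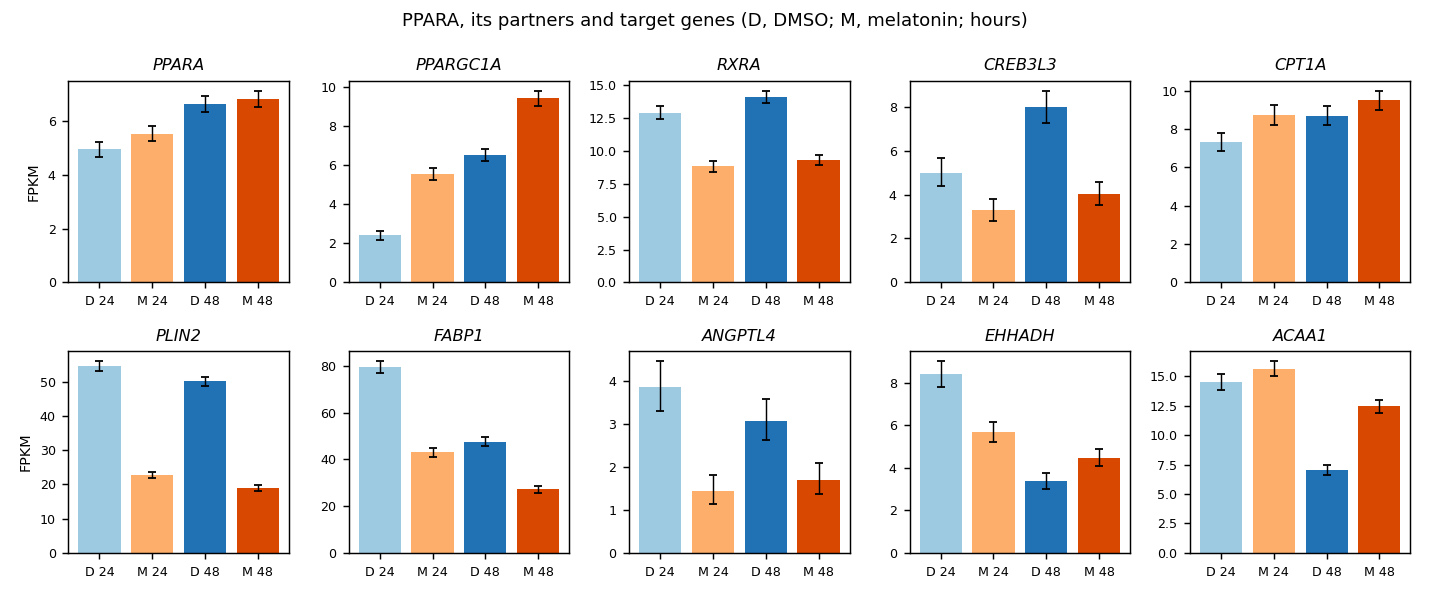
FPKM of PPARA, its coactivator PPARGC1A, its partner RXRA, the fasting regulator CREB3L3 and the target genes CPT1A, PLIN2, FABP1, ANGPTL4, EHHADH and ACAA1, a choice made after the values were seen, in the 4 libraries (D, DMSO; M, melatonin; 24 and 48 h), as bars from 0 with the 95% exact Poisson interval. PPARGC1A was higher and PLIN2, FABP1, ANGPTL4, RXRA and CREB3L3 were lower with melatonin at both times, while CPT1A differed by at most 1.19-fold, ACAA1 was higher at 48 h (1.77) and EHHADH lower at 24 h and higher at 48 h (1.33).

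Acyl-CoA synthetases join a fatty acid to coenzyme A, and the 4 long-chain members differed in opposite directions. ACSL3, an enzyme of the endoplasmic reticulum and lipid droplets (chr2:222860934-222944639), was at 48.5 and 85.6 at 24 h and at 43.3 and 61.9 at 48 h, so both melatonin libraries lay above both DMSO libraries. The ratios were 1.76 (1.71 to 1.82) and 1.43 (1.38 to 1.47). ACSL4, which prefers arachidonic acid, was at 86.7 and 100.3 at 24 h and at 63.5 and 77.6 at 48 h, with ratios of 1.16 and 1.22. ACSL5, an enzyme of mitochondria and the endoplasmic reticulum (chr10:112374018-112428380), was at 30.2 and 22.7 at 24 h and at 39.3 and 19.0 at 48 h. It was lower by 1.33-fold (1.26 to 1.42) at 24 h and fell by 2.07-fold (1.96 to 2.19) at 48 h, where its log2 fold change was -1.01. The call was at the edge, since centring on the median of all genes and scaling by the reads on nuclear genes each left PLIN2 as the only member past 2-fold at 48 h. ACSL5 overlaps ZDHHC6 on the opposite strand, which had 561, 658, 732 and 768 reads. ACSL1, the main synthetase of liver, was at 10.7 and 11.0 at 24 h and at 17.3 and 10.6 at 48 h, and was 1.63-fold (1.53 to 1.75) lower with melatonin at 48 h.

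The makeup of the synthetases differed accordingly. ACSL3 made up 27.5% and 39.0% of their summed FPKM at 24 h, and 26.5% and 36.6% at 48 h. ACSL5 made up 17.2% and 10.3% at 24 h and 24.0% and 11.2% at 48 h. The share of ACSL4, the largest in each library, was lower with melatonin at 24 h (49.2% and 45.7%) and higher at 48 h (38.9% and 45.9%). ACSL1 and ACSL5 together held 23.2% and 15.3% at 24 h, and 34.6% and 17.5% at 48 h. The sum itself was 176.2 and 219.5 at 24 h and 163.4 and 168.9 at 48 h. A share within a library does not depend on the library size, while the sum does. TPM moved the median of all genes by 0.15 at 24 h and by 0.46 between the DMSO libraries, so the order of the sums holds for the deposited scale.

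**Figure D4:**
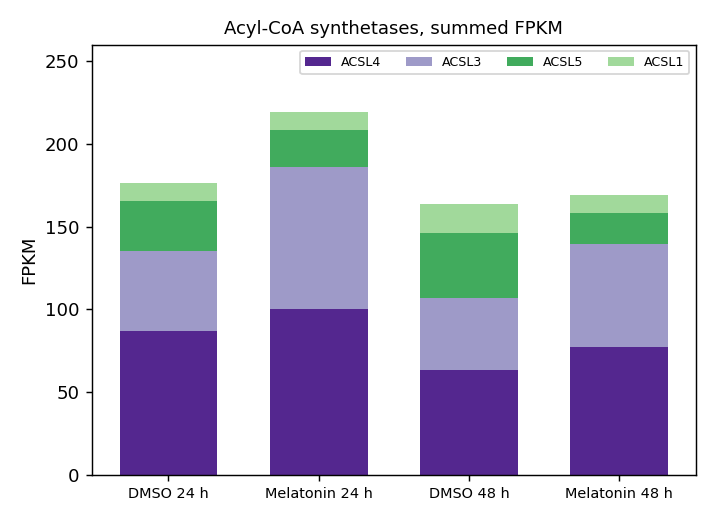
Stacked FPKM of ACSL4, ACSL3, ACSL5 and ACSL1 in the 4 libraries, 1 bar a library, on an axis that starts at 0. The part of ACSL3 is larger and that of ACSL5 smaller with melatonin at both times. On the deposited scale, on which the order of the sums depends, the summed height is 219.5 with melatonin at 24 h against 163.4 to 176.2 in the other libraries.

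The carnitine shuttle carries acyl groups across the inner mitochondrial membrane. CPT1A, its rate-setting enzyme on the outer membrane, was at 7.30 and 8.71 at 24 h and at 8.69 and 9.49 at 48 h, with ratios of 1.19 (1.09 to 1.30) and 1.09 (1.01 to 1.18). SLC25A20, the carnitine-acylcarnitine carrier, was at 5.52 and 4.33 and at 6.42 and 4.18, which is 1.28-fold (1.04 to 1.57) and 1.54-fold (1.27 to 1.86) lower with melatonin. On the deposited scale with a pseudocount neither passed 1.5-fold, while on the TPM scale SLC25A20 passed at 48 h, at -0.63.

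The acyl-CoA dehydrogenases catalyse the opening step of each round, and 6 of the 8 were tested. At 24 h their log2 fold changes lay between -0.11 and 0.27, and at 48 h between -0.42 and 0.69. ACADS, for short chains, was at 10.2 and 9.74 at 24 h and at 5.82 and 10.0 at 48 h, where on the deposited scale only the DMSO library of 48 h stood apart. Its ratio at 48 h was 1.72 (1.5 to 1.97). ACAD9, also an assembly factor of respiratory complex I, was at 8.25 and 9.42 and at 4.37 and 6.78, and ACAD10 was at 3.12 and 3.95 and at 2.36 and 3.97. In both, melatonin was higher at each time and the DMSO library of 48 h was the lowest on the deposited scale. Such an order across times depends on the scale. On TPM neither ACADS nor ACAD9 was 1.5-fold lower at 48 h with DMSO. The log2 fold change of ACAD10 between the DMSO libraries, -0.29, was smaller than the 0.46 by which TPM moved the median of all genes. ACADVL, for very long chains and the most abundant of the group, was at 48.8 and 47.8 and at 48.8 and 36.3. It was 1.35-fold (1.29 to 1.40) lower with melatonin at 48 h, and that library was the low one on the deposited scale alone. ACADM, for medium chains, stayed between 9.18 and 10.6 in all 4 libraries, but on the TPM scale it was past 1.5-fold higher at 48 h than at 24 h with DMSO. ACADM overlaps RABGGTB on the same strand, which had 1855, 2019, 3118 and 2450 reads. ACADSB, of branched chain degradation, was at 26.9, 24.8, 35.6 and 33.4 and differed with time more than with melatonin.

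The electron transfer flavoprotein is a dimer of ETFA and ETFB, and ETFDH passes its electrons to ubiquinone. ETFB was at 33.7 and 22.1 at 24 h and at 31.4 and 20.9 at 48 h, 1.53-fold (1.46 to 1.60) and 1.5-fold (1.43 to 1.57) lower with melatonin. With a pseudocount, at log2 fold changes of -0.59 and -0.56, it passed the 1.5-fold threshold at 24 h alone. On the TPM scale, at -0.43 and -0.63, it passed at 48 h alone. Both melatonin libraries lay below both DMSO libraries. ETFA was at 26.4 and 24.2 and at 26.5 and 20.8. The ETFB over ETFA ratio was 1.28 and 0.912 at 24 h, and 1.18 and 1.01 at 48 h, lower with melatonin in each pair. ETFDH was at 2.01, 2.17, 3.12 and 3.04 and did not differ past counting error between melatonin and DMSO, with ratios of 1.08 (0.874 to 1.33) at 24 h and of 1.03-fold lower (0.872 to 1.21) at 48 h. Among the genes that ETFDH overlaps is PPID on the opposite strand, which had 528, 481, 728 and 531 reads.

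The later steps of each round in mitochondria are carried out by ECHS1, HADH, the trifunctional protein of HADHA and HADHB, and the thiolase ACAA2. Melatonin and DMSO differed little here, with log2 fold changes between -0.18 and 0.01 at 24 h and between -0.13 and 0.23 at 48 h. HADHA was at 88.7 and 81.3 and at 62.9 and 69.5, and HADHB at 26.2 and 26.4 and at 22.4 and 22.6. HADH, the least abundant of the group, was at 3.76 and 3.22 and at 1.49 and 1.92. ECHS1 was at 70.2, 65.6, 45.0 and 44.2 and ACAA2 at 14.5, 13.4, 10.9 and 9.83. All 5 were lower at 48 h than at 24 h in both treatments, by log2 fold changes of -0.21 to -0.94 with DMSO and of -0.22 to -0.56 with melatonin. On the TPM scale, where the median of all genes moved up, HADHA and HADHB turned above 0 in both treatments and ACAA2 with DMSO, while HADH and ECHS1 stayed lower in both.

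The auxiliary enzymes ECI1, ECI2 and DECR1 rearrange the double bonds of unsaturated chains. DECR1, the mitochondrial dienoyl-CoA reductase, was at 7.32 and 8.58 at 24 h and at 3.65 and 6.16 at 48 h, with a ratio of 1.69 (1.45 to 1.96) at 48 h. It overlaps NBN on the opposite strand, whose reads were 400 and 669 at 48 h. ECI2 was at 14.4, 13.8, 9.86 and 12.2, and ECI1 at 25.4, 29.2, 21.7 and 22.2.

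In peroxisomes the chains are oxidised by ACOX enzymes, EHHADH or HSD17B4, and the thiolase ACAA1. ACAA1 was at 14.5 and 15.6 at 24 h and at 7.05 and 12.4 at 48 h, with a ratio of 1.77 (1.64 to 1.90) at 48 h. As for ACADS and DECR1, the DMSO library of 48 h was the lowest of the 4. EHHADH was at 8.40 and 5.67 and at 3.38 and 4.48, which is 1.48-fold (1.32 to 1.66) lower with melatonin at 24 h and a ratio of 1.33 (1.15 to 1.53) at 48 h. HSD17B4, the most abundant member of the group, was at 19.0, 16.2, 13.2 and 12.2. ACOX2, which acts on bile acid precursors, was at 5.83, 5.24, 5.33 and 4.07, and ACOX3, for branched chains, at 4.74, 5.18, 3.40 and 4.75.

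ACOT1 and ACOT2, thioesterases that release free fatty acids from coenzyme A in the cytosol and in mitochondria, are near-identical neighbours on chromosome 14, and reads may have been split between them. ACOT2 was at 19.9 and 18.8 and at 21.3 and 15.1, 1.41-fold (1.29 to 1.55) lower with melatonin at 48 h, and ACOT1 was at 7.31, 5.90, 5.08 and 4.18.

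Ketone bodies are made from acetyl-CoA in a short pathway that ACAT1 opens, and BDH1 reduces acetoacetate to 3-hydroxybutyrate. ACAT1 was at 12.3, 13.0, 11.0 and 11.5, with ratios of 1.06 (0.983 to 1.14) and 1.05 (0.975 to 1.13). BDH1 (chr3:197509783-197573323) was at 2.58 and 1.22 at 24 h, from 432 and 225 reads, and at 4.28 and 3.65 at 48 h. It was 2.12-fold (1.80 to 2.50) lower with melatonin at 24 h, with a log2 fold change of -0.69 on the scale with a pseudocount, and 1.17-fold (1.06 to 1.30) lower at 48 h. Of 6 ketone genes beyond the members, 4 were tested at 24 h, with 1 above 0 and 3 below, and 3 at 48 h, with 1 above 0 and 2 below, and values are given for 4 of the 6. The ketone-using enzyme OXCT1 was at 1.88, 1.29, 0.783 and 0.838, the cytosolic BDH2 at 2.08, 1.52, 1.42 and 1.38, HMGCLL1 was listed at 0, and the monocarboxylate carrier SLC16A1 was at 65.3, 64.9, 68.0 and 53.9.

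Beyond the members, 73 other genes of the pathway were looked up. Of the 53 tested at 24 h and the 52 tested at 48 h, 0 passed 2-fold in either direction on the scale with a pseudocount. At 1.5-fold, 0 were higher and 2 lower at 24 h (ANGPTL4 and CIDEC), beside 1.92% higher and 2.74% lower among protein-coding genes. At 48 h, 5 were higher (CRAT, SLC27A2, SLC27A4, PHYH and NDUFAF1) and 3 lower (CREB3L3, ANGPTL4 and PLIN4), beside 6.78% and 6.36%. The medians were 0.02 and 0.04. The following role and genes were singled out after their values were seen. The carnitine and transport genes had 5 of 7 tested above 0 at 24 h and 6 of 6 at 48 h, beside 57.9% and 49.0% of protein-coding genes. At 48 h their median log2 fold change was 0.66 and their summed FPKM 32.6 with DMSO and 56.3 with melatonin. At 24 h the sums were 49.8 with DMSO and 60.0 with melatonin, so the DMSO library of 48 h was the low one on the deposited scale. The medians of the other roles at 48 h lay between -0.38 (lipolysis and droplet) and 0.13 (regulators and fuel sensing). Of these genes SLC27A4, a fatty acid transport protein, was at 16.8, 23.9, 12.9 and 23.8, with a ratio of 1.85 (1.70 to 2.01) at 48 h. CRAT, carnitine acetyltransferase, was at 14.0, 15.4, 7.18 and 13.2, and SLC27A2, a very long-chain acyl-CoA synthetase, at 11.1, 11.5, 5.31 and 9.72. PHYH, the peroxisomal phytanoyl-CoA hydroxylase, was at 6.38, 7.55, 3.75 and 6.14, and NDUFAF1, an assembly factor of complex I, at 4.75, 5.37, 2.67 and 5.21. In CRAT, SLC27A2, PHYH and NDUFAF1 the DMSO library of 48 h was the low one. ANGPTL4, a target of PPARA that inhibits lipoprotein lipase, was at 3.86 and 1.45 and at 3.09 and 1.71, 2.66-fold (2.02 to 3.55) and 1.81-fold (1.40 to 2.35) lower with melatonin. RXRA, the partner of PPARA, was at 12.9 and 8.81 and at 14.1 and 9.29, 1.46-fold (1.38 to 1.55) and 1.52-fold (1.44 to 1.60) lower. CREB3L3, a hepatic regulator of fasting genes, was at 4.98 and 3.28 and at 7.97 and 4.02. PLIN3, another droplet coat protein, was at 33.4 and 23.8 and at 31.0 and 21.1. On the deposited scale, both melatonin libraries lay below both DMSO libraries in ANGPTL4, RXRA, CREB3L3 and PLIN3. Such an order across times depends on the scale. For CREB3L3, at 4.98 with DMSO at 24 h and 4.02 with melatonin at 48 h, it is lost on the TPM scale. PNPLA2, the lipase that opens lipid droplets, was 1.36-fold (1.28 to 1.44) higher with melatonin at 24 h and 1.33-fold (1.27 to 1.39) lower at 48 h.

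Time in culture was compared within each treatment, and these comparisons use the same libraries as those of melatonin. With DMSO, 1 member rose and 1 fell at least 2-fold from 24 h to 48 h, PPARGC1A and EHHADH, where 1.65% of 10539 protein-coding genes rose and 2.78% fell, and 7.74% of all genes passed in either direction. At 1.5-fold, 8 members were lower (FABP1, ACADS, ACAD9, HADH, ECHS1, DECR1, EHHADH and ACAA1) and 2 higher (PPARGC1A and ACSL1), beside 10.7% lower and 7.68% higher among protein-coding genes. The balance depends on the scale. On the TPM scale, with 37 members tested, 3 rose 2-fold (PPARGC1A, ACSL1 and BDH1) and 0 fell, and at 1.5-fold 11 were higher and 2 lower, EHHADH and HADH. With melatonin, 1 member rose 2-fold, BDH1, which was 3.0-fold (2.58 to 3.49) higher at 48 h, and 0 fell, where 0.496% of 10492 protein-coding genes rose and 0.429% fell, and 4.15% of all genes passed in either direction. At 1.5-fold, 1 was lower (FABP1) and 2 higher (PPARGC1A and BDH1), beside 4.28% and 2.48%, and on the TPM scale 0 were lower and 4 higher. The members' median was -0.19 with DMSO and -0.23 with melatonin, and that of all genes 0.00 and -0.04. With DMSO 13 members were above 0 and 23 below, and with melatonin 9 and 27, while 48.6% and 40.2% of protein-coding genes were above 0. The interval of the ratio left out 1 for 30 of 36 members in each, and for 73.4% and 62.5% of protein-coding genes. TPM put the members' median above 0, at 0.28 and 0.05, with the median of all genes then at 0.46 and 0.23.

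The values side by side show how the time courses of single members differed. EHHADH was 2.49-fold (2.19 to 2.84) lower at 48 h with DMSO and 1.27-fold (1.12 to 1.44) lower with melatonin. ACAA1 was 2.06-fold (1.91 to 2.22) lower with DMSO and 1.26-fold (1.18 to 1.34) lower with melatonin, and HADH 2.53-fold (2.24 to 2.85) and 1.67-fold (1.5 to 1.87) lower. ACADS was 1.75-fold (1.52 to 2.02) lower with DMSO and at a ratio of 1.03 (0.911 to 1.16) with melatonin. ACSL1 and ACSL5 went the other way, at ratios of 1.62 (1.51 to 1.73) and 1.30 (1.23 to 1.37) with DMSO, and with melatonin they were 1.04-fold (0.963 to 1.12) and 1.19-fold (1.12 to 1.27) lower. These folds hold for the deposited scale, since TPM moved the median of all genes by 0.46 with DMSO and by 0.27 with melatonin. The log2 fold changes of ACSL1 and ACSL5 with melatonin, -0.05 and -0.24, were smaller in size than that 0.27. On the TPM scale only EHHADH and HADH were 1.5-fold lower at 48 h with DMSO. Whether these time courses differ beyond the spread between cultures could not be tested with 1 library per condition, and the DMSO library of 48 h enters both the time course and the melatonin comparison of 48 h.

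**Figure D5:**
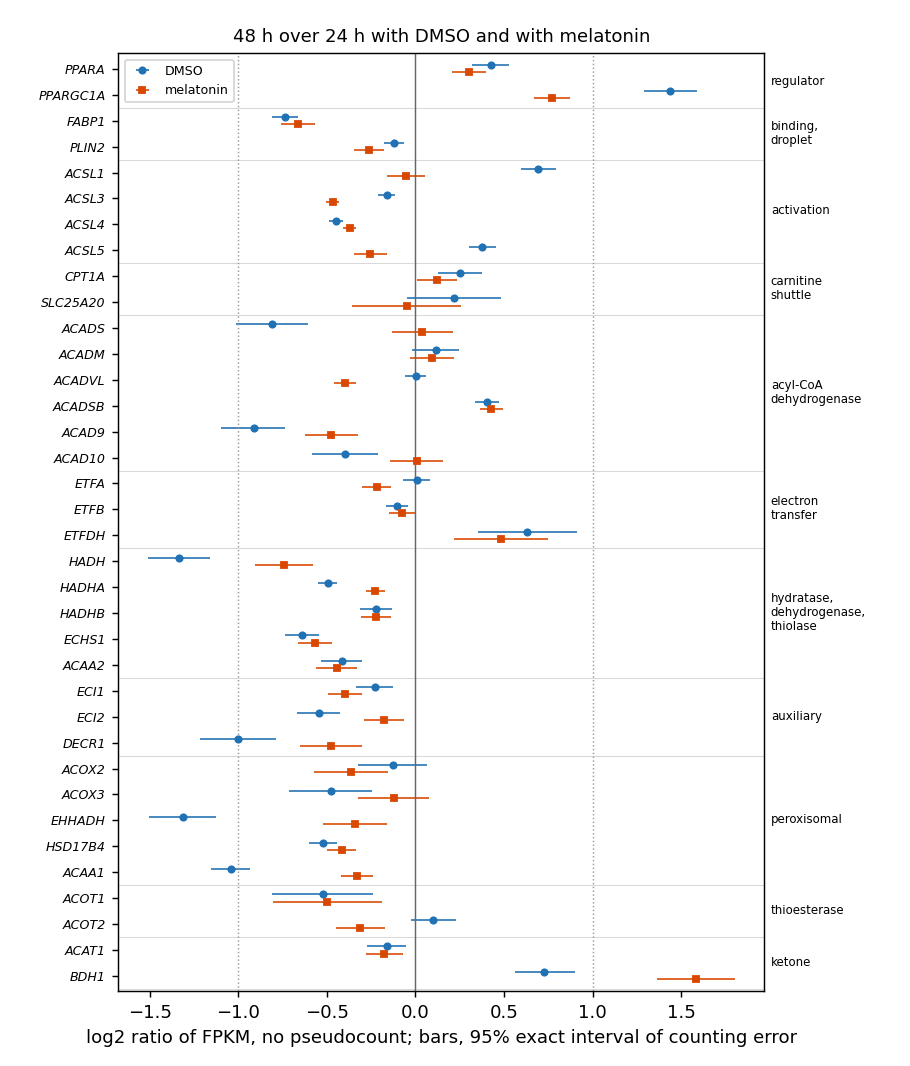
Log2 ratio of FPKM at 48 h over 24 h without a pseudocount, with DMSO (blue circles) and with melatonin (orange squares), for 36 members, with bars for the 95% exact interval of counting error and dotted lines at a ratio of 2 either way. EHHADH, HADH and ACAA1 lie past the lower dotted line with DMSO and inside it with melatonin, where DECR1 lies about on the line with DMSO, while PPARGC1A lies past the upper line with DMSO alone and BDH1 with melatonin alone.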

How the data were processed

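HepG2 RNA was sequenced as 1 paired-end library for each of 4 conditions. The authors deposited FPKM per Ensembl gene with the gene length in bp beside it, a value for which the method is not given in the sources used here. Their methods name MapSplice on hg38 and Cufflinks, and the submitters' processing notes list Bowtie2 2.0.6, TopHat2 2.0.9, Cufflinks 2.1.1 and Cuffdiff 2.1.1. How these fit together, the annotation release and the use of strand in counting are not stated. Of the members, 20 overlap another protein-coding gene, for which reads cannot be told apart.

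In each library the product of FPKM and length came in whole steps for 100% of the values above 0, within 0.05 of a read, so reads per gene were recovered, and the step was 1 read over a library size of 18357838 to 22205042. Recovered reads served for exact Poisson intervals (95%), Clopper-Pearson intervals of ratios and the floor of 3 reads. Log2 fold changes had a pseudocount of 1 and understate low genes, and a gene entered a comparison when one of its libraries had an FPKM of 1 or more. Every member could be named, other pathway genes when past 2-fold or in the ketone role, and further names were picked after their values were seen, and some results that this rule covers are not reported here. The members and the lists of roles, other pathway genes and markers were chosen with earlier results of these data known. The alternatives were a pseudocount of 0.1, no filter, a minimum FPKM of 5, TPM, centring on the median, scaling by reads on nuclear genes and a threshold of 1.5-fold. Read recovery, calls and intervals were tested on simulated data. Promoter sequences are from RefSeq (GRCh38.p14), and gene coordinates are those of the files, with exons of GENCODE 44 used to check that the printed upstream sequences hold no exon of their gene. Python 3.11, numpy 2.4.6, pandas 2.3.3, scipy 1.17.1 and matplotlib 3.10.9 were used.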

Additional observations from a re-analysis of the deposited data

Results flagged for a closer look

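Members were singled out when the ratio of melatonin over DMSO lay past counting error on one side of 1 at 24 h and on the other at 48 h. This held for 3 members, and the difference between the times was not tested against a spread between cultures. EHHADH had a log2 fold change of -0.49 at 24 h and of 0.33 at 48 h, which differ by 0.82. HADH had -0.18 and 0.23, which differ by 0.41. On the TPM scale its 24 h value was -0.05, and whether that lies past counting error was not computed. HADHA had -0.12 and 0.14, which differ by 0.27, and on the TPM scale its 24 h value was 0.05, so that the opposite signs were lost there.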

How the results depend on the processing

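No paired analysis was possible because each condition has 1 library and no replicate number pairs the samples, and no replicate could be left out. An additive fit of treatment and time, which would take the difference between the times as error, was not run. Of 28 counts of members past the threshold under an alternative, 18 stayed within 1.5 times the reported count, and of 24 medians 21 moved by less than the half-width of a single member's counting interval, 0.106 to 0.113 in the middle, which is coarse for a median. The 48 h median lay between -0.02 and 0.09. With the threshold at 1.5-fold the counts were 6 and 7 for melatonin over DMSO at 24 h and 48 h, in place of 1 and 2, and 10 and 3 for time with DMSO and with melatonin, in place of 2 and 1. With a pseudocount of 0.1 they were 3 at 24 h and 4 for time with DMSO. At a minimum FPKM of 5 the count for time with melatonin was 0, since BDH1 was no longer tested. Centring on the median and scaling by reads on nuclear genes each gave 1 at 48 h. On the TPM scale, which the share of mitochondrial transcripts moves, 2 members passed at 24 h (PLIN2 and PPARGC1A), 3 for time with DMSO (EHHADH was lost, ACSL1 and BDH1 were gained), and the members' medians were 0.11 at 24 h, 0.28 for time with DMSO and 0.0498 for time with melatonin. Relative to the median of all genes on that scale these were -0.06, -0.18 and -0.19. With 1 library per condition, depth bounds counting error only.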
